A study of Arabidopsis thaliana with 16 samples.

Results

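Within a study of iron-starved Arabidopsis thaliana roots, the columella of the root cap was set against the epidermis with the lateral root cap. The comparison used 7 arrays of the 16 in the series, chosen by their titles alone: 3 arrays of columella root cap cells and 4 arrays of epidermal and lateral root cap cells. Each array was hybridised with RNA from root cells that had been freed of their walls as protoplasts and sorted on green fluorescent protein. The columella cells came from the reporter line PET111 and the epidermal cells from the line WER::GFP, both in the Columbia ecotype. All 16 arrays share the same treatment: roots of seedlings 6 days after germination were moved for 24 h to medium in which iron was replaced by 0.3 mM ferrozine, a chelator of ferrous iron. No array of roots grown with iron was analysed here, so every value below is a difference between cell populations under iron deficiency and not a response to it. Each population stands for the cells that 1 reporter line marks, and WER::GFP marks the lateral root cap together with the epidermis, so root cap cells lie on both sides of the comparison. The inner populations (cortex, endodermis with quiescent center, and stele, with 3 arrays apiece) are quoted only where they place a gene.

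The columella is the central part of the root cap, at the tip of the root. Its cells fill with starch-rich plastids, the amyloplasts, whose settling under gravity is the first step of gravity sensing, and proteins of the LAZY family link that settling to auxin transport toward the lower flank. Auxin, delivered to the tip through the stele, is high in the columella, and Aux/IAA proteins, GH3 enzymes and DAO1 belong to the machinery that limits auxin response and auxin itself. The oldest cap cells are shed or die in a programmed way. The epidermis elongates, forms root hairs in defined files, and is the layer that takes up iron and secretes iron-binding coumarins.

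The values are signals of a 3′-biased oligonucleotide array, on a linear scale that was set per array. Within a population the arrays correlated at 0.952 to 0.967 over the columella and at 0.970 to 0.981 over epidermis replicates 1 to 3 (Pearson, log2 scale), whereas columella and epidermis arrays correlated at 0.759 to 0.836. Epidermis replicate 4 stood apart. It correlated at 0.894 to 0.938 with replicates 1 to 3, its control for 25S rRNA read 1087.5, against 4999, 3143 and 3830 on the columella arrays and 5363, 8289 and 5670 on replicates 1 to 3, and its summed cortex markers were the highest of its group. The log2 ratio of the 3′ to the 5′ end of 3 control transcripts, a sign of RNA integrity and amplification, was 3.45, 3.19 and 3.52 on the columella arrays, against 3.07, 2.92, 3.01 and 3.09 on the epidermis arrays, so these groups did not overlap. Summed signals of the cortex markers were 37.96 to 97.56 in columella, 107.2 to 347.9 in epidermis and 2446 to 4181 in sorted cortex, and those of the endodermis markers were 81.61 to 131.6 in columella, 44.78 to 127.8 in epidermis and 9153 to 13250 in sorted endodermis. The part of these differences in the results below was not tested.

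The 2 outer populations differed over much of the array. Of 16221 probe sets tested with limma, 3867 (23.8%) were higher in columella and 3544 (21.8%) were lower at an adjusted p under 0.05, and the median difference over all of them was 0.00589 on the log2 scale. Without epidermis replicate 4 these counts were 4060 (25.1%) and 4001 (24.7%) of 16190, and 3662 and 3337 probe sets were called in the same direction both with and without it. Differences of at least 4-fold numbered 868 in the columella direction and 556 in the epidermis direction, and those of at least 16-fold numbered 83 and 25. All columella arrays lay above all epidermis arrays for 25.6% of the probe sets and below them for 21.8%. Folds come from differences between means of log2(signal + 10.21) and understate the change of dim genes, signals below that added value carry little information, and n is 3 columella and 4 epidermis arrays throughout. Because the cells were measured in bulk, fewer cells of a type and less RNA per cell cannot be told apart. A symbol was available for only 1231 of the tested probe sets, so the lists below hold the members that could be named and not whole pathways.

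The gravity gene LZY3 and 4 of 6 tested genes of starch synthesis and breakdown were higher in columella, and none was lower. Over all probe sets 23.8% were higher and 21.8% lower. LZY3 (AT1G72490), a LAZY protein that couples amyloplast settling to auxin flow, gave signals of 364, 704 and 587 in columella, against 10.6, 15.6, 17.9 and 23.3 in epidermis. All columella arrays lay far above all epidermis arrays, and the gene was 20.3-fold higher, log2 difference 4.35 ± 0.41, adjusted p = 3.3e-07. Its mean in sorted cortex, endodermis and stele was 9.01 ± 1.27, 29.9 ± 27.2 and 12.9 ± 9.12. It was the single gravity gene of 9 listed that the annotation named.

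APL4 (AT2G21590), a large subunit of the ADP-glucose pyrophosphorylase that makes the starch precursor, had signals of 239, 464 and 334 in columella, against 41.4, 27.3, 31.1 and 28.2 in epidermis, and was 8.21-fold higher, log2 difference 3.04 ± 0.34, adjusted p = 2e-06. SBE2.2 (AT5G03650), which branches the glucan chains, had 489, 615 and 774 in columella and 144, 179.7, 243 and 123 in epidermis, and was 3.53-fold higher (adjusted p = 0.00016). Both genes were higher on every columella array than on any epidermis array. Of the 4 tested genes of starch synthesis these 2 were higher and none was lower (median log2 difference 1.05, against 0.00589 over all probe sets). APL3, another large subunit, and PTST1, which brings granule-bound starch synthase to the granule, did not pass, with log2 differences of 0.27 (adjusted p = 0.62) and 0.22 (adjusted p = 0.59). Both tested genes of starch breakdown were higher. PWD (AT5G26570), the phosphoglucan water dikinase that phosphorylates the granule surface, read 1071, 1151 and 1757 in columella and 141, 110.2, 177 and 140.4 in epidermis and was 8.66-fold higher, log2 difference 3.11 ± 0.29, adjusted p = 3.5e-07. DPE1 (AT5G64860), the plastid disproportionating enzyme that recycles short maltooligosaccharides, read 860.2, 1258 and 1018 in columella and 351, 382, 298 and 261 in epidermis and was 3.16-fold higher (adjusted p = 0.00017). Neither overlapped between the groups.

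**Figure D1:**
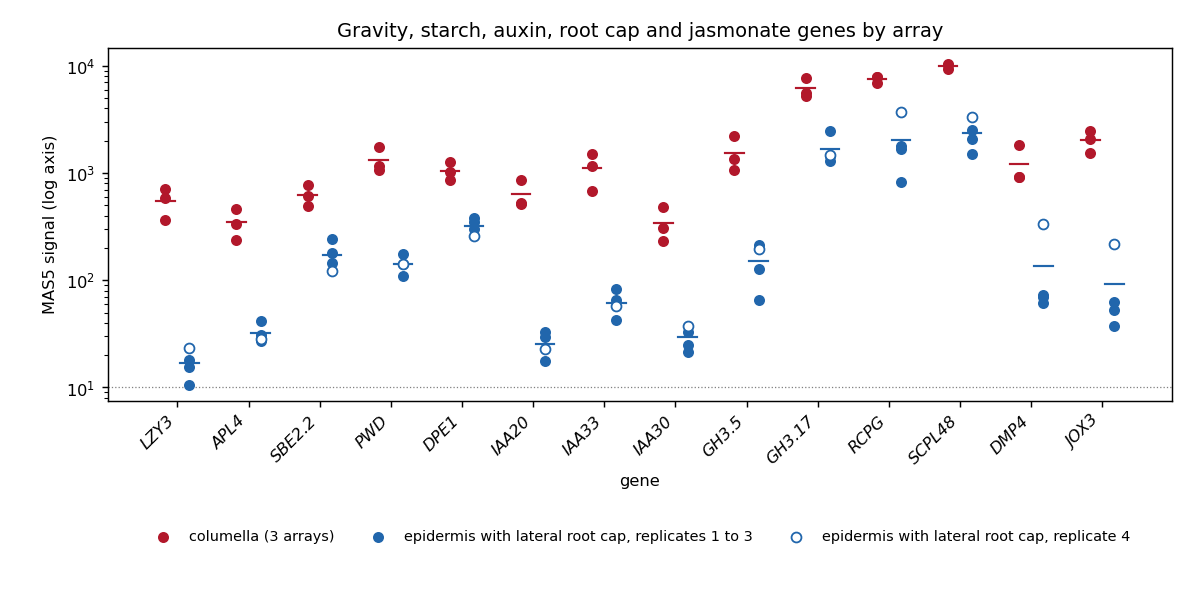
MAS5 signal on a log axis for 14 genes, with 1 point per array, the 3 columella arrays left of the 4 epidermis arrays, and a line at each arithmetic mean; epidermis replicate 4 is drawn open, and the dotted line marks the added value of 10.21. All 14 genes have every columella array above every epidermis array, and for DMP4 and JOX3 the open point, at 333.0 and 216.8, lies above the other epidermis arrays. Members of the same lists that overlapped, such as APL3, PTST1, GH3.1, GH3.3, YUC2 and IAA31, are not drawn.

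Plastid-encoded transcripts went the other way. Of 69 tested genes of the plastid genome, 43 were lower in columella and none was higher, against 21.8% and 23.8% of all probe sets. The median log2 difference was -1.22. Without epidermis replicate 4, 37 were lower and the median was -0.88. The summed plastid signal was 13080 to 17630 on the columella arrays, against 30530 to 64620 on the epidermis arrays, with no overlap. In the inner populations it was 71510 to 147700 in cortex, 128400 to 198000 in endodermis and 50340 to 62740 in stele, so the columella arrays were the lowest of the series. The array is read from poly(A)-primed RNA, so signals of plastid transcripts are not levels comparable with those of nuclear genes. By product, 11 of 15 genes of photosystem II, 5 of 7 of photosystem I, 4 of 10 of the NADH dehydrogenase-like complex, 3 of 6 of the ATP synthase, 1 of 6 of the cytochrome b6f complex, 9 of 15 of the ribosomal proteins and all 4 of the plastid-encoded RNA polymerase were lower. The ATP synthase genes split: atpB and atpE were lower by log2 differences of -2.09 and -1.54, whereas atpH, atpF and atpI did not pass, at -0.14, 0.0010 and -0.05. The largest difference was that of psbZ, a small photosystem II subunit, with 221, 164 and 183 in columella against 1401, 563, 936 and 2037 in epidermis (5.64-fold lower, log2 difference -2.50 ± 0.36, adjusted p = 3.1e-05). Every columella array was below every epidermis array for psbZ, as it was for psbH (5.21-fold lower, adjusted p = 7.4e-06). The 3′ to 5′ ratio of the control transcripts, given above, also separated the groups, and its part in this difference was not tested. Genes of the mitochondrion were not counted as a set. Among them nad4, ccb206 and matR were also lower, at log2 differences of -1.42, -1.36 and -1.79 (adjusted p = 0.0033, 0.0003 and 2e-05). So were orfX, ccb203, ccb452 and nad6, at -2.10, -1.17, -0.91 and -0.74 (adjusted p = 0.00027, 0.015, 0.046 and 0.033). The mean of matR in columella was 2.15, below the added value of 10.21. The mitochondrial genes nad4L, nad9, cox2 and ccb382 did not pass, at -0.17, -0.65, -0.60 and -1.08. None of the mitochondrial genes given here was higher in columella.

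**Figure D2:**
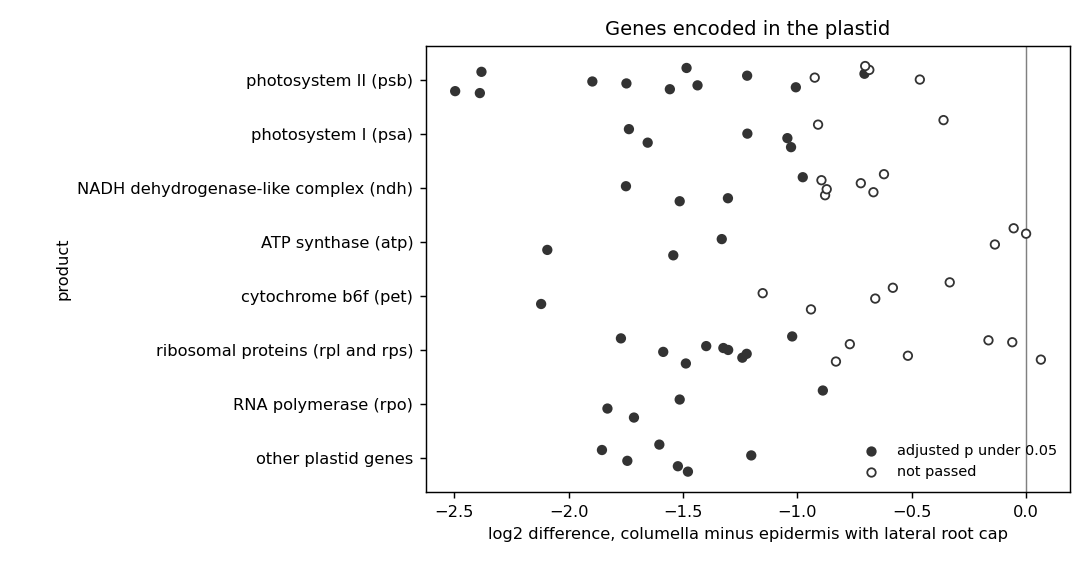
Log2 difference, columella minus epidermis with lateral root cap, for the 69 plastid genes by product, 1 point per gene, filled where the adjusted p was under 0.05. The points reach from -2.50 (psbZ) to 0.07 (rpl20), and all 4 RNA polymerase genes are filled.

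Among auxin genes, 6 of 7 tested Aux/IAA repressors were higher in columella and none was lower (median log2 difference 1.29), against 23.8% and 21.8% of all probe sets. Aux/IAA proteins hold auxin response factors inactive until auxin marks them for degradation, and IAA20, IAA30, IAA33 and IAA34 lack the canonical degron through which auxin acts. IAA20 (AT2G46990) had signals of 511, 526 and 855 in columella, against 29.6, 32.6, 17.65 and 22.7 in epidermis, and was 17.61-fold higher, log2 difference 4.14 ± 0.40, adjusted p = 5.5e-07. IAA33 (AT5G57420) had 1488, 674 and 1154 in columella and 66.0, 43.0, 82.1 and 56.9 in epidermis, and was 15.0-fold higher (adjusted p = 3.2e-07). IAA30 (AT3G62100) had 306, 233 and 477 in columella and 32.99, 25.1, 21.4 and 37.6 in epidermis, and was 8.59-fold higher (adjusted p = 7.9e-07). For all of these the lowest columella array was several times the highest epidermis array, and their means in sorted stele were 49.3 ± 5.14, 16.4 ± 9.49 and 107 ± 19.1.

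The remaining Aux/IAA genes were dimmer. IAA29, IAA34 and IAA18 rose by 2.45-, 2.31- and 2.27-fold (adjusted p = 0.0047, 0.0046 and 0.0043). IAA18 read 65.5, 75.9 and 65.5 in columella and 18.1, 12.9, 21.8 and 60.3 in epidermis, where replicate 4 nearly reached the columella level. IAA29 and IAA18 were brighter in sorted stele, at 305 ± 104 and 461 ± 86.3. IAA31 did not pass, with a log2 difference of 0.19 (adjusted p = 0.72).

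Of 6 tested genes of auxin synthesis and turnover, 3 were higher in columella and none was lower, against 23.8% and 21.8% of all probe sets. The 3 were all enzymes that remove auxin. GH3.5 (AT4G27260), which conjugates auxin to amino acids, read 1069, 2223 and 1336 in columella and 212, 65.9, 128 and 197 in epidermis and was 9.96-fold higher, log2 difference 3.32 ± 0.38, adjusted p = 2.4e-06. GH3.17 (AT1G28130), which makes the glutamate conjugate, read 5622, 7681 and 5247 in columella and 2438, 1298, 1426 and 1483 in epidermis and was 3.77-fold higher (adjusted p = 7.4e-06). DAO1 (AT1G14130), the dioxygenase that oxidises auxin, read 148, 247 and 264 in columella and 69.3, 88.4, 74.1 and 93.5 in epidermis and was 2.45-fold higher (adjusted p = 0.00015). The groups did not overlap for any of them. GH3.1, GH3.3 and the auxin synthesis gene YUC2 did not pass, with log2 differences of 0.65, -0.52 and 0.22. GH3.1 read 86.4, 314 and 49.6 on the columella arrays, so 1 columella array stood above the epidermis range of 38.5 to 121 and the others did not. The kinase WAG2, which acts on auxin efflux carriers, had a log2 difference of -0.69 (adjusted p = 0.14).

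Against 23.8% of all probe sets, all 3 tested genes of jasmonate turnover were higher in columella. They encode the oxidases JOX2, JOX3 and JOX4, which hydroxylate jasmonic acid and so inactivate it. JOX3 (AT3G55970) had 1545, 2488 and 2055 in columella, against 37.3, 62.8, 53.0 and 217 in epidermis, where replicate 4 was the highest of its group (23.8-fold higher, log2 difference 4.57 ± 0.39, adjusted p = 1.6e-07), and averaged 7.12 ± 4.35 in cortex, 30.3 ± 4.29 in endodermis and 18.6 ± 6.64 in stele. JOX2 (AT5G05600) was 3.36-fold higher (adjusted p = 0.00084) and JOX4 (AT2G38240) was 5.18-fold higher (adjusted p = 0.00035). JOX4 was brighter still in sorted endodermis and stele, at 2354 ± 805 and 1055 ± 549, against columella signals of 319, 276 and 365.

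Among genes of cap cell detachment and cell death, RCPG and 2 of 4 tested cell death genes were higher in columella. A single gene of the 4 was lower, a call that did not hold without epidermis replicate 4. The shares over all probe sets were 23.8% higher and 21.8% lower. RCPG (AT1G65570), a root cap polygalacturonase that loosens pectin when cap cells separate, had signals of 6916, 7792 and 7878 in columella, against 1802, 817, 1691 and 3737 in epidermis (4.28-fold higher, log2 difference 2.098 ± 0.59, adjusted p = 0.0078). It averaged 136 ± 96.7 in sorted cortex, 386 ± 335 in endodermis and 63.5 ± 38.3 in stele, and the epidermis population holds the lateral root cap by its label. Of 4 tested genes known from developmental cell death, SCPL48 (AT3G45010), a serine carboxypeptidase-like protein, read 9224, 10406 and 10106 in columella and 2493, 1506, 2086 and 3334 in epidermis and was 4.36-fold higher (adjusted p = 2.9e-06). DMP4 (AT4G18425), a membrane protein, read 1831, 913 and 909.9 in columella and 72.2, 61.9, 70.3 and 333 in epidermis and was 10.2-fold higher (adjusted p = 0.00015). PASPA3 (AT4G04460), an aspartic protease that marks cells preparing to die, was the single gene of this list that fell. It read 716, 851 and 548 in columella and 1244, 725, 1004 and 3401 in epidermis, with overlap (1.90-fold lower, adjusted p = 0.042), and without epidermis replicate 4 it was 1.39-fold lower with an adjusted p of 0.095. The call was also lost without epidermis replicate 1 and without columella replicate 1 or 3, the highest adjusted p being 0.15. AT2G14095 did not pass, at a log2 difference of -0.83. In sorted stele PASPA3 averaged 1793 ± 325 and DMP4 647 ± 253.

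Autophagy genes leaned toward columella: 6 of 11 were higher and none was lower, against 23.8% and 21.8% of all probe sets. The median log2 difference of the autophagy genes was 1.21. The 6 were all ATG8 genes, which encode the ubiquitin-like protein that coats the growing autophagosome. ATG8G (AT3G60640) had 536, 465 and 677 in columella and 84.6, 92.05, 86.8 and 86.3 in epidermis and was 5.77-fold higher, log2 difference 2.53 ± 0.23, adjusted p = 3e-07. ATG8B, ATG8F, ATG8E, ATG8D and ATG8C rose by 2.31- to 4.63-fold. ATG8E read 67.5, 61.0, 48.6 and 295 in epidermis, with replicate 4 inside the columella range of 262 to 410.0. ATG8H, ATG8I, ATG8A, the ATG8-processing protease ATG4B and the conjugating enzyme ATG3 did not pass, at log2 differences of 0.17 to 0.53. Without epidermis replicate 4, 9 of the 11 were called higher, ATG8H, ATG8I and ATG4B being added.

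Epidermal identity and root hair genes were lower in columella. MYC1 (AT4G00480), a basic helix-loop-helix protein of the complex that sets hair and non-hair fate, had signals of 61.9, 69.7 and 13.8 in columella, against 726, 959, 731 and 457 in epidermis (13.6-fold lower, log2 difference -3.77 ± 0.51, adjusted p = 1.4e-05). TRY (AT5G53200), a small MYB protein that moves between cells to repress the non-hair fate, had 5.93, 21.9 and 16.5 in columella and 63.2, 91.3, 50.03 and 35.2 in epidermis and was 2.80-fold lower (adjusted p = 0.0045). Neither overlapped. JKD, a zinc finger protein that acts from the cortex on epidermal patterning, was dim in both populations and did not pass (adjusted p = 0.46).

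All 4 tested root hair genes were lower, against 21.8% of all probe sets, with a median log2 difference of -2.12. PRX44 (AT4G26010), a peroxidase of the root hair wall, read 46.0, 40.1 and 34.1 in columella and 1166, 495, 497 and 646 in epidermis and was 13.3-fold lower, log2 difference -3.73 ± 0.31, adjusted p = 1.1e-07. SCN1 (AT3G07880), which restricts hair initiation to 1 site per cell, read 345, 244 and 173 in columella and 1079, 1050.2, 874 and 1057 in epidermis and was 4.01-fold lower (adjusted p = 5.9e-06). EXPA18 (AT1G62980), a hair expansin, was 3.49-fold lower (adjusted p = 0.0027). EXPA7 (AT1G12560), another hair expansin, read 141, 33.2 and 41.0 in columella and 512, 352, 235 and 241 in epidermis and was 4.73-fold lower (adjusted p = 0.01), with an adjusted p of 0.057 once columella replicate 2 was left out. Signals of these hair genes were not limited to the epidermis: PRX44 averaged 1192 ± 559.5 and SCN1 1769 ± 253 in sorted stele.

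**Figure D3:**
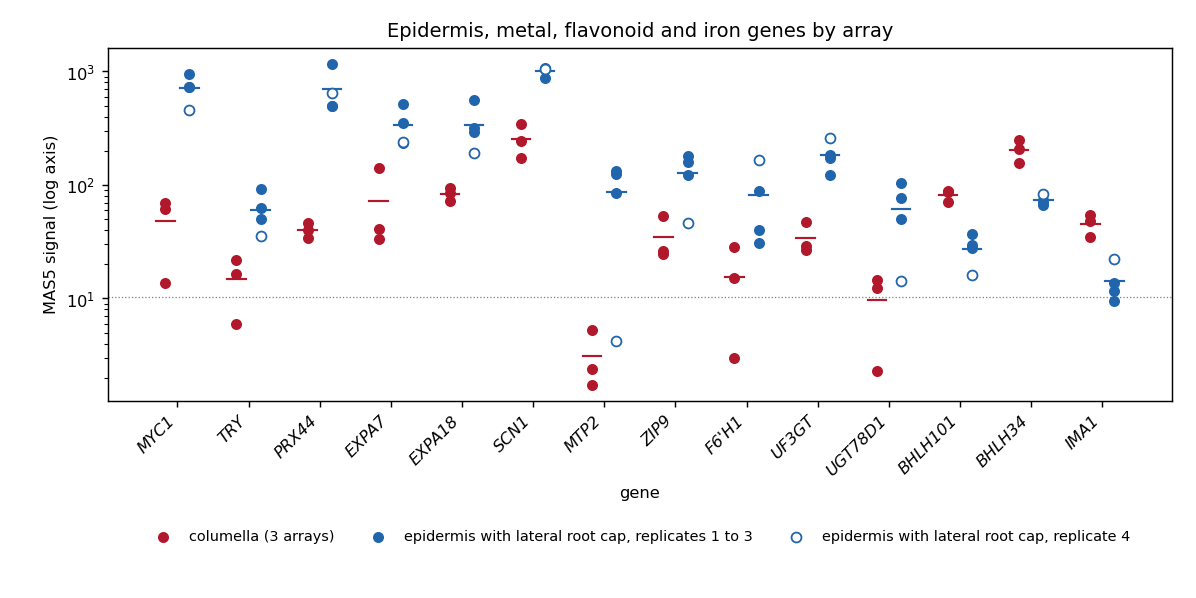
MAS5 signal on a log axis for 14 genes of epidermal identity, root hairs, metals, coumarins, flavonoids and iron regulation, drawn as in the plot of gravity, starch and auxin genes, with columella left of epidermis. The first 11 genes were lower in columella and the last 3 higher; the open point of epidermis replicate 4 falls within the columella range for UGT78D1 and ZIP9 and at 4.19 for MTP2.

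Many iron regulators were higher in columella, with both groups starved of iron. Of 12 tested regulators, 8 were higher and none was lower, against 23.8% and 21.8% of all probe sets. The median log2 difference of the regulators was 0.92. The basic helix-loop-helix proteins of subgroup IVc switch on the regulators of the iron deficiency response, and 3 of their 4 genes passed. BHLH34 (AT3G23210) had 247, 208 and 157 in columella, against 66.0, 70.0, 73.3 and 83.2 in epidermis (2.54-fold higher, log2 difference 1.35 ± 0.20, adjusted p = 4.1e-05). BHLH104 (AT4G14410) and ILR3 (AT5G54680) were 1.95- and 1.85-fold higher, and BHLH115 (AT1G51070) did not pass, at 1.42-fold (adjusted p = 0.058, and 0.017 without epidermis replicate 4). Sorted endodermis was at least as bright, with means of 234 ± 34.9 for BHLH34, 1146 ± 142 for BHLH104 and 1366 ± 280.5 for ILR3. The columella means of these genes were 204 ± 44.9, 882 ± 276 and 1242 ± 240.

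BHLH121 (AT3G19860), their partner, read 330.3, 290.3 and 359 in columella and 205, 174, 166 and 104 in epidermis and was 1.99-fold higher (adjusted p = 0.0016). BHLH101 (AT5G04150), of the subgroup Ib that drives uptake genes together with FIT, read 86.3, 71.0 and 88.0 in columella and 27.6, 36.7, 29.4 and 15.97 in epidermis and was 2.49-fold higher (adjusted p = 0.00023). IMA1 (AT1G47400), a short peptide that signals iron need, read 48.1, 54.5 and 34.6 in columella and 9.51, 13.7, 11.6 and 22.3 in epidermis and was 2.30-fold higher (adjusted p = 0.003). None of these overlapped. In the inner populations BHLH101 averaged 249 ± 46.3 in cortex and IMA1 244 ± 36.5 in stele, both above the columella arrays, and BHLH121 averaged 318 ± 49.0 in endodermis, within the columella range.

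PYE (AT3G47640), a repressor of iron transport and storage genes, was 1.66-fold higher (adjusted p = 0.016), and BHLH19 (AT2G22760), of the group that promotes degradation of FIT, was 2.28-fold higher (adjusted p = 0.015). Both calls were lost without epidermis replicate 3 or columella replicate 1, and that of PYE also without columella replicate 3, the highest adjusted p being 0.087 for PYE and 0.058 for BHLH19. The ubiquitin ligases BTSL1 and BTSL2, which target FIT and its partners, did not pass, at log2 differences of 0.30 and 0.30, nor did BHLH25 at -0.47.

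Of the tested genes for coumarins and metal transport, none passed the test as higher in columella. F6'H1 (AT3G13610), the hydroxylase that makes the precursor of iron-binding coumarins, had 15.1, 28.3 and 3.01 in columella and 89.3, 30.6, 40.2 and 165 in epidermis and was 3.301-fold lower, log2 difference -1.72 ± 0.48, adjusted p = 0.0073, with no overlap. Its call was lost without columella replicate 3 (adjusted p = 0.055), and its mean in sorted cortex was 1084 ± 80. The glucosidase BGLU42 and the coumarin synthase COSY did not pass, at log2 differences of -0.51 and 0.08, and BGLU42 was called lower without epidermis replicate 4 (adjusted p = 0.029).

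Both tested metal transporters were lower in columella, against 21.8% of all probe sets. MTP2 (AT3G61940), a zinc transporter of the endoplasmic reticulum, had 2.39, 5.25 and 1.74 in columella, against 133, 85.6, 126 and 4.19 in epidermis (5.43-fold lower, adjusted p = 0.0052). ZIP9 (AT4G33020), a zinc and iron transporter of the ZIP family, had 24.6, 53.2 and 26.1 in columella and 179, 122, 158 and 46.1 in epidermis (2.88-fold lower, adjusted p = 0.0048). Epidermis replicate 4 read at the columella level for both genes, and without it MTP2 was 9.29-fold lower.

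**Figure D4:**
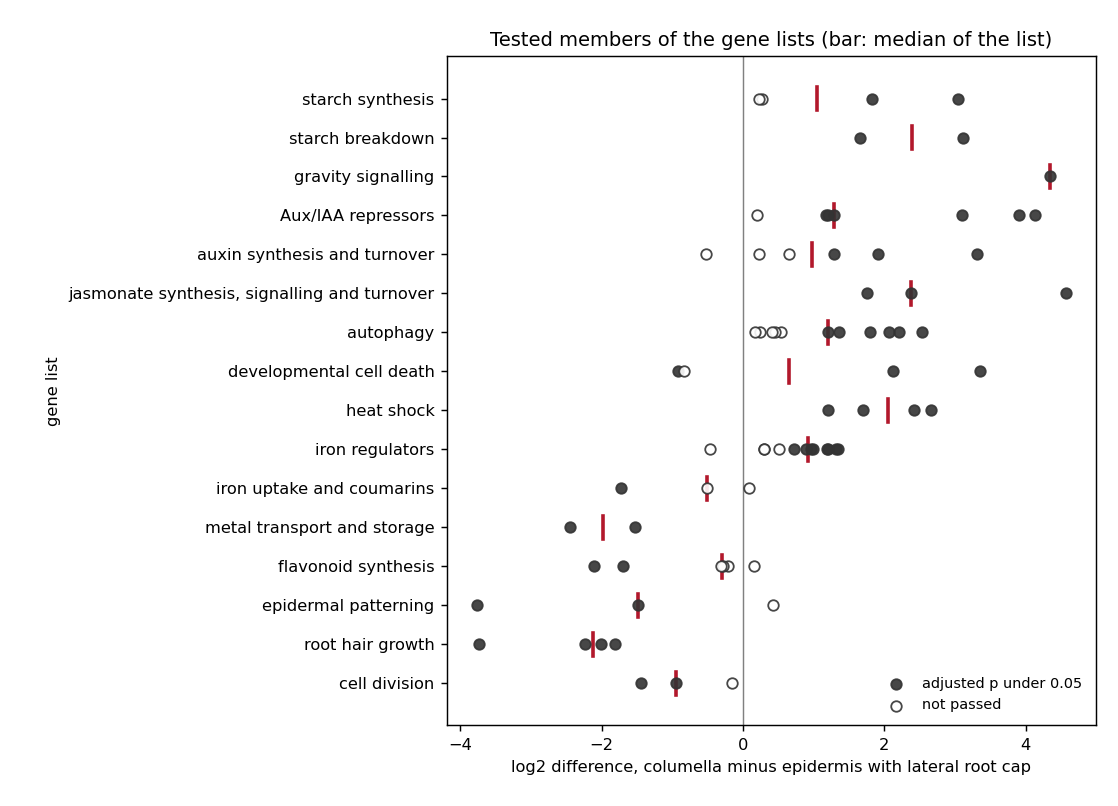
Log2 difference, columella minus epidermis with lateral root cap, for each tested member of 16 gene lists, filled where the adjusted p was under 0.05, with a bar at the median of each list. Starch, Aux/IAA, autophagy and iron regulator lists have filled points only right of 0, and root hair, metal, flavonoid and cell division lists only left of 0.

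Of 6 tested flavonoid genes 2 were lower in columella and none higher, and of 3 cell division genes 2 were lower and none higher. Over all probe sets 21.8% were lower and 23.8% higher, and counts this small do not set these lists apart. Of 6 flavonoid genes, the sugar transferases UF3GT (AT5G54060), which acts on anthocyanins, and UGT78D1 (AT1G30530), which rhamnosylates flavonols, were lower. UF3GT read 28.8, 26.9 and 47.4 in columella and 185, 123, 172 and 260.0 in epidermis and was 4.33-fold lower, log2 difference -2.11 ± 0.27, adjusted p = 8e-06. UGT78D1 was 3.23-fold lower (adjusted p = 0.007) and overlapped, since epidermis replicate 4 read 14.27. DFR, CHIL, UGT78D2 and UGT89C1, other steps of the pathway, did not pass. The mitotic kinase AUR1 (AT4G32830) read 132, 115 and 91.6 in columella and 268, 379.7, 384 and 272 in epidermis and was 2.72-fold lower (adjusted p = 0.0022). MCM7, a subunit of the replicative helicase, was 1.93-fold lower (adjusted p = 0.044) and lost its call without epidermis replicate 1, 2 or 3 or columella replicate 1 or 3, the highest adjusted p being 0.14. AUR2, a second Aurora kinase, did not pass (adjusted p = 0.68).

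Families that build and remodel the cell wall had members that differed in each direction, beside 23.8% of all tested probe sets higher and 21.8% lower. Of 14 expansins, which loosen the wall as cells grow, 5 were higher in columella and 5 lower. EXPA4 (AT2G39700) had 806, 1252 and 1343 in columella and 115, 129.8, 116 and 90.3 in epidermis (9.16-fold higher, log2 difference 3.196 ± 0.25, adjusted p = 4.7e-08). EXPB1 (AT2G20750) and EXPA8 (AT2G40610) were 7.21- and 6.73-fold lower, falling to 4.53- and 3.63-fold without columella replicate 3 and reaching 11.3- and 10.4-fold without replicate 1. Among 11 tested GH9 endoglucanases, 2 were higher and 5 lower. GH9B6 (AT1G23210) had 3303, 3013 and 4078 in columella and 665, 266, 351 and 273 in epidermis (9.26-fold higher, adjusted p = 6.7e-05), whereas GH9C3 (AT4G11050) had 6.16, 42.3 and 11.3 in columella and 287, 398, 465 and 157 in epidermis (11.8-fold lower, adjusted p = 1.4e-05). GH9C1 (AT1G48930) was 5.89-fold lower (adjusted p = 0.00085).

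Of 7 tested XTH genes, which remodel xyloglucan, 2 were higher and 2 lower, shares near those over all probe sets (23.8% and 21.8%). XTH19 (AT4G30290) had 481, 321 and 136 in columella and 1749, 1776, 1678 and 2523 in epidermis (6.66-fold lower, adjusted p = 9.5e-05), and XTH18 (AT4G30280) was 6.03-fold lower (adjusted p = 7.7e-06). XTH21 (AT2G18800) was 9.07-fold higher (adjusted p = 0.00016) and read 646, 233 and 67.3 in columella. It was brighter in sorted endodermis and stele, at 1221 ± 624 and 1202 ± 241. Without columella replicate 1 XTH21 was 5.38-fold higher and without replicate 3 it was 15.7-fold higher. Of 7 cellulose synthase-like genes, none was higher and CSLA03 and CSLC04, of the mannan and xyloglucan backbone families, were 5.88- and 2.82-fold lower (CSLA03 3.65-fold lower without columella replicate 3). Among 19 TBL genes, whose family acetylates wall polymers, 6 were higher and 5 lower, again near the shares over all probe sets, led by TBL34 (7.74-fold higher) and TBL21 (5.71-fold lower). TBL34 averaged 609 ± 301 in sorted stele, against 253 ± 53.3 in columella.

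Among probe sets with 1 named gene, the 2 largest differences toward columella and the 3 largest toward epidermis were in genes known here only by locus tag. AT5G51890 read 7879, 6076 and 3909 in columella and 51.9, 35.5, 28.4 and 137 in epidermis and was 90.4-fold higher, log2 difference 6.50 ± 0.59, adjusted p = 2.5e-07. AT5G40020 and AT2G27740 were 86.5- and 40.8-fold higher. These 3 genes were also bright in sorted stele, with means of 2185 ± 1096, 1050.0 ± 537 and 1331 ± 356. In the other direction, AT3G06460 read 52.7, 128 and 4.92 in columella and 3961, 2053, 3604 and 9433 in epidermis and was 80.5-fold lower, log2 difference -6.33 ± 0.60, adjusted p = 4.2e-07. Without columella replicate 3 it was 43.9-fold lower and without replicate 2 it was 132.5-fold lower. AT2G37700 and AT3G49190 were 42.4- and 38.5-fold lower, and the means of all 3 in the inner populations stayed below their epidermis means.

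Of the named genes with a symbol, ATC (AT2G27550), a relative of the flowering repressor TFL1, differed most. It had 678, 700.2 and 501 in columella, against 4.12, 2.39, 2.01 and 3.77 in epidermis (47.5-fold higher, log2 difference 5.57 ± 0.31, adjusted p = 2.6e-09), and averaged 347 ± 108 in endodermis and 251 ± 42.2 in stele. IRX15 (AT3G50220) and IRX15-L (AT5G67210), which act in xylan deposition of secondary walls, were 18.3- and 8.73-fold higher. IRX15-L was brighter in sorted endodermis and cortex, at 857 ± 130 and 606 ± 158, against a columella mean of 412 ± 93.1. IRX15 read 248, 205 and 201 in columella and 1.93, 3.82, 0.928 and 2.24 in epidermis. UGT76C2 (AT5G05860), which inactivates cytokinins by glucosylation, had 597, 583 and 946 in columella and 37.0, 31.4, 50.02 and 67.3 in epidermis (12.7-fold higher, adjusted p = 1.5e-08). GSTU20 (AT1G78370), a glutathione transferase, and IQD22 (AT4G23060), a calmodulin-binding protein, were 9.69- and 9.74-fold higher, with means below the columella level in each of the other 4 populations.

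Several other strongly columella-high genes had brighter signals in the inner root. SBT4.12 (AT5G59090), a subtilisin-like protease, read 1349, 553 and 796 in columella and 68.5, 17.3, 44.9 and 119 in epidermis (13.6-fold higher, adjusted p = 1.2e-06), and averaged 3076 ± 481 in endodermis and 3923 ± 731 in stele. LCR68 (AT2G02130), a defensin-like peptide, was 12.8-fold higher (adjusted p = 2e-05), averaged 5662 ± 958 in endodermis, and without epidermis replicate 4 was 20.0-fold higher. PDC2 (AT5G54960), a pyruvate decarboxylase of fermentation, was 10.3-fold higher and brightest in cortex at 636 ± 56.4. Of 23 listed stele markers 2 were tested, LHW and SWEET11. Their summed signal was 373.3 to 412.9 in columella, 203.8 to 280.0 in epidermis and 933.0 to 1194 in sorted stele. In sorted endodermis it was 860.9 to 1234, so these 2 genes do not set stele apart from endodermis. SWEET11, a sucrose transporter of the phloem, was 3.04-fold higher (adjusted p = 0.0021), and LHW, a factor of vascular patterning, did not pass (adjusted p = 0.23). Their part in these results was not tested.

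**Figure D5:**
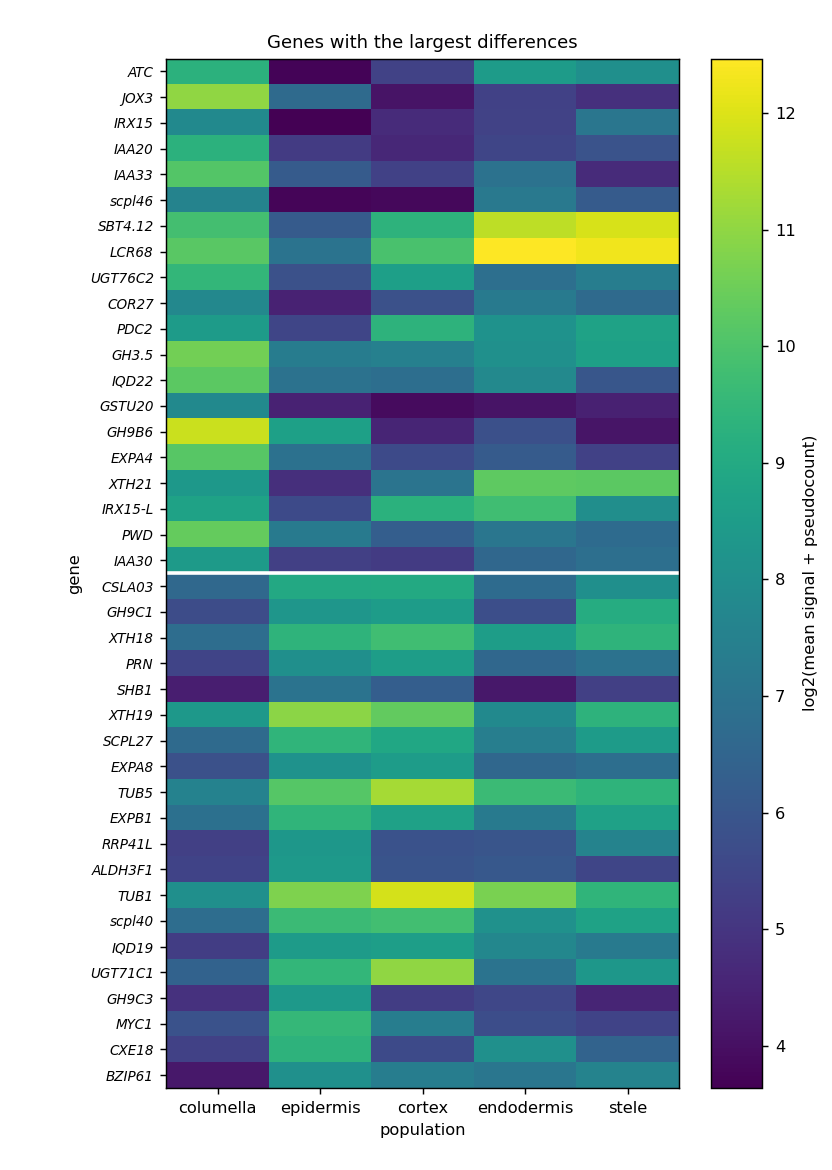
Mean signal on the scale log2(signal + 10.21) in the 5 sorted populations for the 20 genes with the largest differences each way that have a symbol and no overlap between the arrays, ordered from highest in columella (top) to highest in epidermis (bottom), with a white line between them. JOX3, IAA33, GH9B6 and EXPA4 are brightest in columella, whereas SBT4.12 and LCR68 are brightest in endodermis and stele, and TUB1 and UGT71C1 in cortex.

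Among the named genes with a symbol that were lower in columella, BZIP61 (AT3G58120), a bZIP transcription factor, had the largest difference. It had 1.52, 22.9 and 0.776 in columella, against 270.3, 223, 277 and 267 in epidermis (16.6-fold lower, log2 difference -4.05 ± 0.37, adjusted p = 3e-07), and was also present in the inner populations at means of 155 ± 26.9, 126 ± 35.6 and 183 ± 115. CXE18 (AT5G23530), a carboxylesterase, had 17.35, 50.7 and 22.7 in columella and 680.5, 379, 386 and 1149.8 in epidermis (15.6-fold lower, adjusted p = 5.9e-07). ALDH3F1 (AT4G36250), an aldehyde dehydrogenase, was 7.81-fold lower (adjusted p = 8.4e-07), and its means in the other populations, 50.3 ± 10.4 in cortex, 56.9 ± 31.9 in endodermis and 34.6 ± 9.98 in stele, were close to the columella level. RRP41L (AT4G27490), an exosome subunit relative, was 7.44-fold lower (adjusted p = 7.9e-06), with epidermis replicate 4 at 101.3 below the other epidermis arrays.

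The beta-tubulins TUB1 (AT1G75780) and TUB5 (AT1G20010) and the calmodulin-binding protein IQD19 (AT4G14750) were lower in columella, and columella replicate 3 was the lowest array for all of them. TUB1 read 461, 249.6 and 46.7 in columella and 2038, 1251, 1541 and 2099 in epidermis (8.93-fold lower, log2 difference -3.16 ± 0.45, adjusted p = 2.3e-05). TUB5 was 6.98- and IQD19 10.8-fold lower. The same array was lowest for the glucosyltransferase UGT71C1 (AT2G29750), at 97.7, 119 and 6.61 in columella and 896, 478, 712 and 759 in epidermis, and for the carboxypeptidase-like scpl40 (AT3G63470), at 166, 132 and 6.76 in columella and 848, 454, 692 and 1162 in epidermis. None of the columella arrays reached the epidermis range for these genes, which was a condition for naming them. Without columella replicate 3 the folds were 4.87 for TUB1, 4.38 for TUB5, 5.97 for UGT71C1 and 4.78 for scpl40, all still lower in columella, and without replicate 1 they were 14.03 for TUB1 and 15.4 for scpl40. SHB1 and PRN, the pirin that binds G-proteins, and SCPL27 were 6.28-, 6.18- and 6.72-fold lower.

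Of 36 tested UGT glycosyltransferases, a family of secondary metabolism, 11 were higher in columella and 6 lower, near the shares over all probe sets (23.8% higher and 21.8% lower). Of 13 cytochrome P450 genes with a symbol 5 were higher and 1 lower, and of 12 glutathione transferases 5 were higher and none lower, with median log2 differences of 0.51 and 0.57. GSTL3 (AT5G02790) had the next largest difference after GSTU20, with 225, 297 and 393 in columella and 36.8, 27.5, 40.6 and 59.1 in epidermis (6.16-fold higher, adjusted p = 1e-06). Unlike GSTU20, it was brighter in sorted cortex, at 469 ± 73.1, than in columella, at 305 ± 83.9. Of 19 serine carboxypeptidase-like genes 5 were higher and 5 lower, among them scpl46 (AT2G33530), with 221, 143 and 181 in columella and 2.35, 3.71, 3.37 and 3.43 in epidermis (14.1-fold higher, adjusted p = 1.9e-08). HCT (AT5G48930), which shapes monolignol synthesis, was 3.27-fold higher (adjusted p = 4.8e-05), with 1229, 1159 and 498 in columella, and was brighter in sorted endodermis at 5315 ± 10.1.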

How the data were processed

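RNA of sorted root cells was hybridised to 16 arrays, 1 per sample. The deposited intensity values are linear MAS5 signals, scaled by the authors on each array (tool named per the submitters' processing notes, its version not given in the sources used here). Signals entered as log2(signal + 10.21), the 20th percentile. Probe sets with at least 3 arrays at 38.05 (the 40th percentile) or above were tested: 16221 of 22746, after leaving out 64 controls. A mean for every population was estimated over the 16 arrays by limma 3.58.1 (R 4.3.3), with eBayes moderation along the intensity trend and 11 residual degrees of freedom. The 2-sided tests were adjusted by Benjamini and Hochberg over all tested probe sets, at 0.05. Values after ± are SEs of log2 differences, or SDs of mean signals. Detection calls were not used here. Whether replicates were separate cultures is not stated in the labels. The p-values thus cover only the spread among these samples, and precision is limited by how few arrays there are.

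Samples were grouped by their titles. Replicate numbers did not pair the populations (correlations of deviations -0.004, -0.116 and 0.237). In the annotation table used, 13513 probe sets have 1 gene, 503 have several and 8794 have none; a gene is given by its brightest probe set, and the other tested probe set of BTSL1 did not pass either. LZY3, DAO1, RCPG, PASPA3, DMP4, PRX44, BTSL1, BTSL2, IMA1, BHLH19, BHLH25, COSY, PTST1, ATG4B, UGT89C1, JOX2, JOX3, JOX4, HSP17.6C, HSP26.5, SGN1, SGN3, MTP2, GH3.5, F6'H1 and ROF2 are names from general knowledge for loci that the tables list otherwise. Genes were named as the 20 largest differences each way with a symbol, called with and without epidermis replicate 4 and without overlap, the 3 largest each way with a locus tag alone, and members of lists and families. Members and lists were chosen with earlier results of these data known. The lists of auxin perception, nutrient uptake and quiescent center markers had no named member in use here. Members of 1 gene family are not reported here. The fit was tested on simulated data. Alternatives were quantile normalization, other pseudocounts and filters, no trend, array weights, the 7 arrays alone, a replicate block and leaving out each array. Figures used Python 3.11.15, pandas 2.3.3 and matplotlib 3.10.9.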

Additional observations from a re-analysis of the deposited data

Results flagged for a closer look

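Among the 4 epidermis arrays, 1 array lay far from the other 3 for 14 of the 160 named genes by Dixon's test on the log2 scale, which flags about 1 group in 20 by chance. In 8 of these 14 genes the distant array was replicate 4, in 4 it was replicate 3, and in 2 it was replicate 2. Replicate 4 was above the others for XTH19 (2523), WRKY53 (681.5), SGN3 (110.7), DMP4 (333.0), HSP22.0 (26.41), AT1G62510 (253.4) and ATG8E (295.3), and below them for RRP41L (101.3). Replicate 3 was below the others for DFR (14.83), SCN1 (874.3), SGN1 (0.962) and BHLH19 (80.31). Replicate 2 was below the others for psbH (125.5) and BZIP61 (223.1).

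SGN3, a receptor of the endodermal barrier, and AT1G62510, a cortex marker in sorted cells, averaged 5445 ± 864 in endodermis and 2359 ± 573 in cortex. On replicate 4 the summed cortex markers, AT1G62510 among them, were also the highest of the epidermis arrays (347.9), and the part of these transcripts in other results was not tested. Of the genes set apart by replicate 4, XTH19, RRP41L, DMP4, HSP22.0, AT1G62510 and ATG8E were called with that array and also without it, and WRKY53 and SGN3 were called in neither case.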

How the results depend on the processing

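The counts of probe sets higher and lower in columella stayed within 1.5 times of 3867 and 3544 under all alternatives, from 3241 to 4573 and from 2927 to 4621, and more were lower than higher with quantile normalization (3594 higher, 3761 lower) and with array weights (4573 and 4621). Of 128 called named genes, 112 kept their call under every alternative that tested them, 16 lost it under at least 1, and none changed direction. The genes named for the largest differences had to be called without epidermis replicate 4 and to show no overlap. For them the kept call was thus partly fixed by the choice, and the share of 112 is not that of all called probe sets. The replicate block (3957 higher, 3924 lower) was a fit by number only, since the numbers did not pair the samples; it moved the counts of members lower for developmental cell death to 0, iron uptake and coumarins to 2 and glutathione transferases to 1, and the sugar transporters higher to 4. Where a small count moved, the cause was not tested.

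Counts of list members lower became 0 for developmental cell death without a filter, without a trend and on the 7 arrays alone, and 1 for cell division under the same 3 alternatives. The endodermis markers higher became 0 without a filter, on the 7 arrays, with quantile normalization and with the pseudocount at the 40th percentile, and 2 with array weights. The cortex markers lower became 1 on the 7 arrays, with the filter at the 60th percentile and with the larger pseudocount. That stricter filter, which tests fewer genes, also left 1 lower in epidermal patterning, in metal transport and in flavonoid synthesis, 7 UGT genes higher, 3 P450 genes, 2 glutathione transferases and 1 sugar transporter. The P450 gene lower was lost (0) without a filter, without a trend and with a pseudocount of 1, and the 7 arrays left 3 P450 genes and 1 sugar transporter higher. Glutathione transferases lower became 1 on the 7 arrays, with the larger pseudocount and with array weights, where iron uptake and coumarins had 2 lower, and sugar transporters 4 higher. Quantile normalization gave 2 genes lower for endoplasmic reticulum bodies.

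Leaving out single arrays gave 0 to 1 lower for developmental cell death, 0 to 2 for iron uptake and coumarins, 1 to 2 for cell division, flavonoid synthesis and cortex markers, 1 to 2 higher for touch and wounding, 0 to 1 higher for endodermis markers, 3 to 8 TBL, 7 to 13 UGT and 3 to 5 P450 genes higher, 0 to 1 P450 genes and 0 to 1 glutathione transferases lower, and 1 to 4 sugar transporters higher and 1 to 3 lower.

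The direction turned only for genes that were not called. With array weights the log2 differences were 0.10 for UGT89C1 and -0.031 for NAI1. Leaving out single arrays gave -0.25 to 0.70 for rpl20, -0.23 to 0.44 for CHIL, -0.058 to 0.51 for APL3, -0.064 to 0.52 for YUC2, -0.054 to 0.48 for IAA31, -0.64 to 0.30 for UGT89C1, -0.080 to 0.35 for COSY, -0.14 to 0.11 for NAI1, -0.044 to 1.18 for GH3.1 and -0.40 to 0.10 for AUR2.

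Signals near the added value cannot be told from background here, which bears on genes dim in 1 population, and the share of the array with a symbol limits every list.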

Other observations

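Genes for peptide hormones differed in both directions. CLE40 (AT5G12990), a peptide that acts on the stem cells of the root tip, had signals of 70.6, 69.6 and 76.0 in columella, against 11.2, 13.7, 14.4 and 19.7 in epidermis, and was 3.31-fold higher, log2 difference 1.73 ± 0.30, adjusted p = 0.00015 by limma. RALFL32 (AT4G14010) was 4.26-fold higher (adjusted p = 6.5e-05) and RALFL27 (AT3G29780) 3.44-fold lower (adjusted p = 0.0028), so these peptide genes of 1 family differed in direction. RALFL32 was brighter in sorted endodermis and stele, at 2014 ± 391 and 1569 ± 401, against a columella mean of 288 ± 141. Of 8 tested genes for peptide hormones 3 were higher and 1 lower, not far from the 23.8% higher and 21.8% lower over all probe sets.

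Against 23.8% of all probe sets, all 4 tested heat shock genes were higher in columella than in epidermis. HSP17.6C (AT1G53540), a small cytosolic chaperone, read 207, 531 and 637 in columella and 53.3, 66.1, 46.0 and 63.3 in epidermis (6.33-fold higher, adjusted p = 7.2e-06), and columella replicate 1 was the lowest of its group. HSP26.5 and ROF2, a peptidyl-prolyl isomerase of the heat response, were 5.34- and 3.24-fold higher. HSP26.5 was brighter in sorted endodermis and stele, at 261 ± 149 and 132 ± 52.7, against a columella mean of 72.3 ± 36.9. HSP22.0 averaged 42.1 ± 9.44 in endodermis, near its columella mean of 40.5 ± 18.5. HSP22.0 was 2.31-fold higher (adjusted p = 0.024) and overlapped, with epidermis replicate 4 at 26.41, and its call was lost without epidermis replicate 1, 2 or 3 or columella replicate 2 or 3, the highest adjusted p being 0.13. Of 3 genes of touch and wounding, the zinc finger gene ZAT10 (2.50-fold higher, adjusted p = 0.00066) and the calmodulin-like gene CML38 (2.00-fold higher, adjusted p = 0.017) were higher and WRKY53 did not pass. The call of CML38 was lost without epidermis replicate 1 or 3 or columella replicate 2, the highest adjusted p being 0.071. Of 3 genes of endoplasmic reticulum bodies, NAI2, which is needed to form them, read 2747, 2947 and 1638 in columella and 6306, 5328, 5007 and 4491 in epidermis (2.21-fold lower, adjusted p = 0.0037), while PYK10, their main glucosidase, and NAI1 did not pass. BGLU41 was 4.24-fold higher (adjusted p = 6.4e-05) and BGLU15 was 4.20-fold lower (adjusted p = 7.5e-06), among 9 tested glucosidase genes of which 2 were higher and 1 lower, against 23.8% higher and 21.8% lower over all probe sets. Among 12 sugar transporter genes 2 were higher and 3 lower, near those shares, and SWEET16, a vacuolar transporter, was 2.94-fold lower (adjusted p = 0.00097).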
